A study of Homo sapiens with 6 samples.

Results

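The contractile actin cytoskeleton genes are 10 genes of actin filaments and of the proteins that bind or move them: MYL9, CNN1, CNN2, ACTN4, ACTN1, ACTA2, TAGLN, TPM1, TPM2 and CALD1. They were read through every probe set that the platform's probe table assigns to one of these symbols, which gave 24 of the 22283 probe sets on the array and 10 of 11963 named genes. The cells were Hs578T, an established breast cancer line with a mesenchymal appearance, made to carry a HOXA5 gene that can be switched on. HOXA5 belongs to the homeobox family of transcription factors; the genes it controls are the question named in the title of the series. RNA of uninduced cells (0 h) and of cells 6 h and 9 h after induction was put on Affymetrix arrays in each of 2 experiments. With 1 array per time and experiment, each group had 2 arrays. For all groups the labels give seeding in 10 cm dishes 24 h before induction. All groups carry the inducible gene, and the labels used here name no inducing agent, no uninduced arrays at later times and no clone. The labels set the 2 experiments apart as batches of RNA, so every p-value here rests on the spread among 6 arrays, which may be technical in part. HOXA5 itself has no probe set in the probe table, and its level was not analysed here.

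Contractile force in a cell comes from myosin pulling on actin filaments. Phosphorylation of the myosin light chain starts the pull, tropomyosins, caldesmon and calponins lie along the filament and set how myosin and other proteins reach it, and alpha-actinins tie filaments into bundles and to adhesion sites. Many of these genes are switched on together by serum response factor, which binds the CArG box, and they are raised in smooth muscle, in myofibroblasts and in cancer cells of mesenchymal type.

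Of the 10 genes, 8 had a promoter sequence in the RefSeq table used here (GRCh38.p14), in 17 windows that run from 250 bases before to 50 bases after a gene start; MYL9 and TAGLN had none. The CArG box (a pair of C, a run of 6 letters that are A or T, and a pair of G, which reads alike on both strands) was present in 2 of the 17 windows, of CNN2 and of ACTN1, against 1.29% of all 35116 windows of that length. A form with 1 inner letter that is not A or T was found in 4 of the 17 windows, of 3 genes, against 6.94% of all windows. The letters TAATTA, a homeodomain type of site that also reads alike on both strands, were in 0 of the 17 windows and in 4.84% of all. The stretches of CNN2, ACTN1 and ACTA2 below are shown because CNN2 and ACTN1 hold the full box and ACTA2 holds a pair of the near form; capitals mark the boxes. A match is a string of letters and was not shown to be bound in these cells.
CNN2: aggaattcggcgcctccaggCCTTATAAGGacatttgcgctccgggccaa
ACTN1: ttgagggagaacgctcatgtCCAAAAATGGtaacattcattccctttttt
ACTA2: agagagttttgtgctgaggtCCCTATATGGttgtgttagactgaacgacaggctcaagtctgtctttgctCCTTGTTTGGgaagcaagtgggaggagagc
The CNN2 stretch lies at chr19:1026499-1026548 on the plus strand, and its box begins 89 bases before the gene start. The ACTN1 stretch lies at chr14:68977708-68977757 on the minus strand, with the box 171 bases before 1 of the 4 listed starts of that gene. The ACTA2 stretch lies at chr10:88952815-88952914 on the minus strand, with near boxes 121 and 71 bases before 1 of its 2 listed starts.

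Values are given as normalised intensity. The deposited intensities were quantile normalised, because the arrays differed in brightness (median 18.7 to 95.7 intensity units), and values under 12.7 units, the 25th percentile, were set to that floor before taking log2. A probe set was tested if 2 or more of its 6 values lay above the floor, which held for 21 of the 24 and for 9 of the 10 genes; a gene is represented by its brightest tested probe set. Markers of a mesenchymal breast cancer line were above the floor on all arrays for 8 of 8 genes. Their summed normalised intensity was 16130 to 17730 at 0 h, then 16160 to 17450 at 6 h and 16180 to 17400 at 9 h. Of 7 luminal epithelial markers, ESR1, GATA3, KRT8 and KRT18 (781 to 3510) were also above the floor on all arrays. CDH1 was above it on 3 arrays, EPCAM and KRT19 on none. The leukocyte marker CD3E and the endothelial marker PECAM1 were above it on all arrays, the others of their lists were not. A value above the floor thus does not by itself set a cell type apart. Of the smooth muscle markers MYH11 and LMOD1 were at the floor on all 6 arrays, while SMTN and ACTG2 were above it on all and DES on 3; 5 of the 6 listed markers had a probe set, and their sum ranged over 157 to 253, 224 to 273 and 123 to 209. ACTB signal at the 3' end over that at the 5' end, which rises as RNA degrades, was 0.918 to 1.09 on 5 arrays and 1.82 on the 9 h array of experiment 1. The same ratio for GAPDH was 0.863 to 1.12 on those 5 arrays and 1.31 on the 9 h array of experiment 1. The part of that array's RNA in the 9 h values below was not tested.

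Over the time course the genes went different ways: MYL9, ACTN4 and TPM2 had lower values than at 0 h at both induced times and CNN2 at 9 h, TPM1, CALD1 and TAGLN higher values at 9 h, and ACTN1 and ACTA2 had 9 h values near those of 0 h, all on the brightest probe set of each gene. The lowest change at 9 h was that of MYL9, -1.23 ± 0.31 on the log2 scale (± is the standard error; every group has n = 2 arrays), or 2.35-fold lower. None of the 21 tested probe sets passed in any comparison by limma (adjusted p under 0.05). At 9 h against 0 h that background was 0 of 18360 probe sets (0%), and at an unadjusted p under 0.05 lay 3 of the 21 on the lower side (MYL9, CNN2 and ACTN4, against 3.3% of all tested) and 0 on the higher side (4.11%). When the fit also held the experiment, 0 of the 21 passed, against 0.359% of all tested, and the lowest adjusted p was 0.0909, for MYL9.

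**Figure D1:**
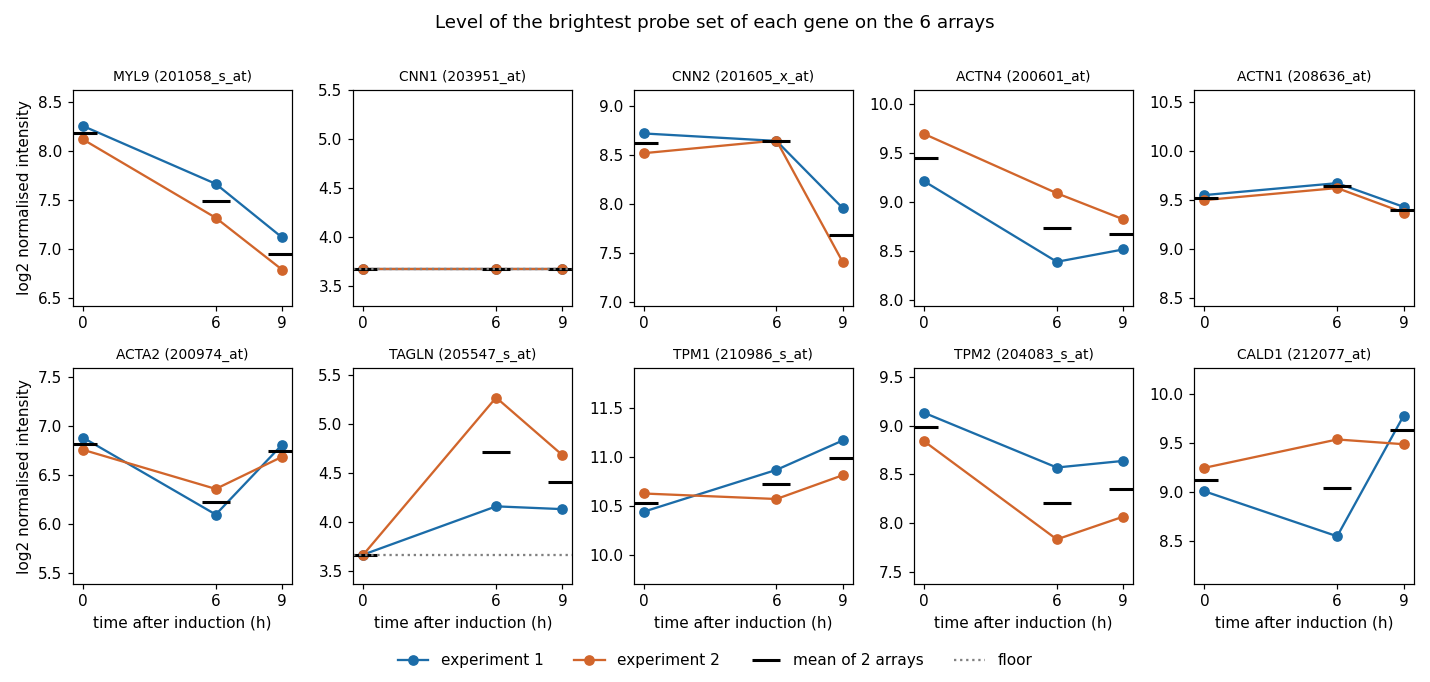
Log2 normalised intensity (vertical axis, each panel spanning 2.2 log2 units) of the brightest probe set of each of the 10 genes against time after induction in hours, with 1 line per experiment and black bars for the mean of the 2 arrays. MYL9 goes down at each step in both experiments, CNN2 between 6 h and 9 h, and CNN1 lies on the floor throughout.

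MYL9 encodes the regulatory light chain of smooth muscle and nonmuscle myosin, the part whose phosphorylation switches the motor on. At 0 h its normalised intensity was 306 in experiment 1 and 278 in experiment 2, at 6 h 203 and 159.9 in that order, and at 9 h 139 and 111. The 3 groups did not overlap, and the order of the times was the same in both experiments. The log2 change was -0.70 ± 0.31 at 6 h against 0 h (limma adjusted p = 0.969) and -0.54 ± 0.31 from 6 h to 9 h (adjusted p = 0.932). At 9 h against 0 h it was -1.23, with an adjusted p = 0.559 and a 95% interval from -1.97 to -0.50. It was -1.14 in experiment 1 and -1.33 in experiment 2, and leaving out any 1 array gave values from -1.40 to -1.07. With unscaled intensities, taken relative to the median of all probe sets, it was -1.23 at 9 h against 0 h and -0.89 at 6 h, while the step from 6 h to 9 h was smaller, -0.31 in place of -0.54.

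The calponins bind actin and slow the myosin motor. CNN1, the calponin of differentiated smooth muscle, had normalised intensities of 1.62 to 6.38 on the 6 arrays, all under the floor, so no change was computed. CNN2, the form found in many cell types, was bright, with normalised intensities of 421 and 366 at 0 h, then 399 and 400.1 at 6 h, then 248 and 169 at 9 h. The 9 h arrays lay below the other 4, which overlapped one another. CNN2 had a log2 change of 0.03 ± 0.29 at 6 h against 0 h, a value that was -0.25 in unscaled intensities relative to all probe sets. At 9 h against 0 h it had -0.94 ± 0.29 (limma adjusted p = 0.600), -0.76 and -1.11 by experiment, and from 6 h to 9 h -0.97 ± 0.29 (adjusted p = 0.932). Its probe set is of the kind marked x, which can also bind RNA of related genes.

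The alpha-actinins crosslink filaments. ACTN4 had normalised intensities of 592 and 827 at 0 h, then 334.5 and 543.5 at 6 h, then 365 and 452 at 9 h. Both induced times lay below 0 h, and experiment 2 was above experiment 1 at every time. The log2 change was -0.71 ± 0.33 at 6 h (limma adjusted p = 0.969), which became -0.36 without the 6 h array of experiment 1, and -0.78 ± 0.33 at 9 h (adjusted p = 0.672). The 6 h and 9 h arrays overlapped.

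ACTN1, the closely related alpha-actinin, was read by 3 probe sets. On the brightest the 0 h arrays read 749 and 723 in normalised intensity, those of 6 h 815 and 787, and those of 9 h 689 and 662. The log2 change at 9 h against 0 h was -0.12 ± 0.22, with a 95% interval from -0.63 to 0.38, and at 6 h 0.12 ± 0.22, a direction that turned to -0.16 in unscaled intensities relative to all probe sets. The other 2 probe sets, both of kind x, had -0.45 and -0.65 at 9 h; leaving out experiment 1 at 9 h made these -0.09 and -0.39, and leaving out experiment 2 there -0.80 and -0.91. All 3 were lower at 9 h than at 6 h in both experiments, by log2 changes of -0.25, -0.81 and -0.61, and in none of the 3 did the 9 h arrays overlap the 6 h arrays. Unscaled, relative to all probe sets, they were -0.0077, -0.56 and -0.34, so the change of the brightest probe set depends on the scaling. Leaving out the 9 h array of experiment 1 gave -0.45 and -0.34 for the x probe sets, and leaving out that of experiment 2 gave -1.16 and -0.87.

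ACTA2, smooth muscle alpha-actin, is the usual marker of myofibroblasts. Its brighter probe set had normalised intensities of 118 and 108 at 0 h, then 68.2 and 81.8 at 6 h, then 112 and 103 at 9 h. The 6 h arrays were lower than all others, and the 9 h arrays overlapped the 0 h arrays. The log2 change was -0.59 ± 0.36 at 6 h (limma adjusted p = 0.969) and -0.07 ± 0.36 at 9 h (adjusted p = 0.987), with a 95% interval from -0.91 to 0.77. The dimmer probe set gave another pattern, with 34.1 and 46.5 at 0 h, then 33.1 and 42.6 at 6 h and 23.9 and 33.6 at 9 h, and changes of -0.09 (-0.31 to 0.14 with 1 array left out) and -0.49 (-0.74 to -0.25, by the 9 h arrays of experiments 2 and 1). The 2 probe sets thus had opposite signs from 6 h to 9 h, 0.52 and -0.41.

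TAGLN, transgelin or SM22, is an actin-binding protein of early smooth muscle differentiation. It was dim: 5.1 and 4.57 at 0 h, both under the floor, then 17.9 and 38.7 at 6 h and 17.6 and 25.7 at 9 h. All 4 induced arrays were above both 0 h arrays. With both 0 h arrays set to the floor, the mean of the 2 log2 TAGLN values lay 2.07-fold above the floor at 6 h and 1.67-fold above it at 9 h. As the 0 h values were under the floor, these are lower bounds on the fold in normalised intensity. The limma adjusted p was 0.969 and 0.781. The size depends on the floor: with the floor at the 10th percentile the log2 changes were 2.45 and 2.14, in place of 1.05 and 0.74, and with the floor at the 40th percentile TAGLN did not pass the filter. It also depends on single arrays: when the 6 h array of experiment 2 was dropped the 6 h change was 0.49, and 1.604 when the other 6 h array was; the 9 h change became 0.46 and 1.02 likewise with its own arrays. Unscaled, with a floor still set, the changes were 0.755 and 0.83, where the medians over all probe sets were -1.34 and -0.56. Relative to those medians they were 2.09 and 1.39. A value set to the floor does not follow the brightness of its array, so these relative values do not measure the size of the change. As deposited, before scaling, the intensities in experiment 1 were 10.5, 7.6 and 16.8 at 0, 6 and 9 h, so at 6 h the order in that experiment depends on the scaling; in experiment 2 they were 4, 31.4 and 22.8. TAGLN was tested only because its induced arrays lie above the floor.

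**Figure D2:**
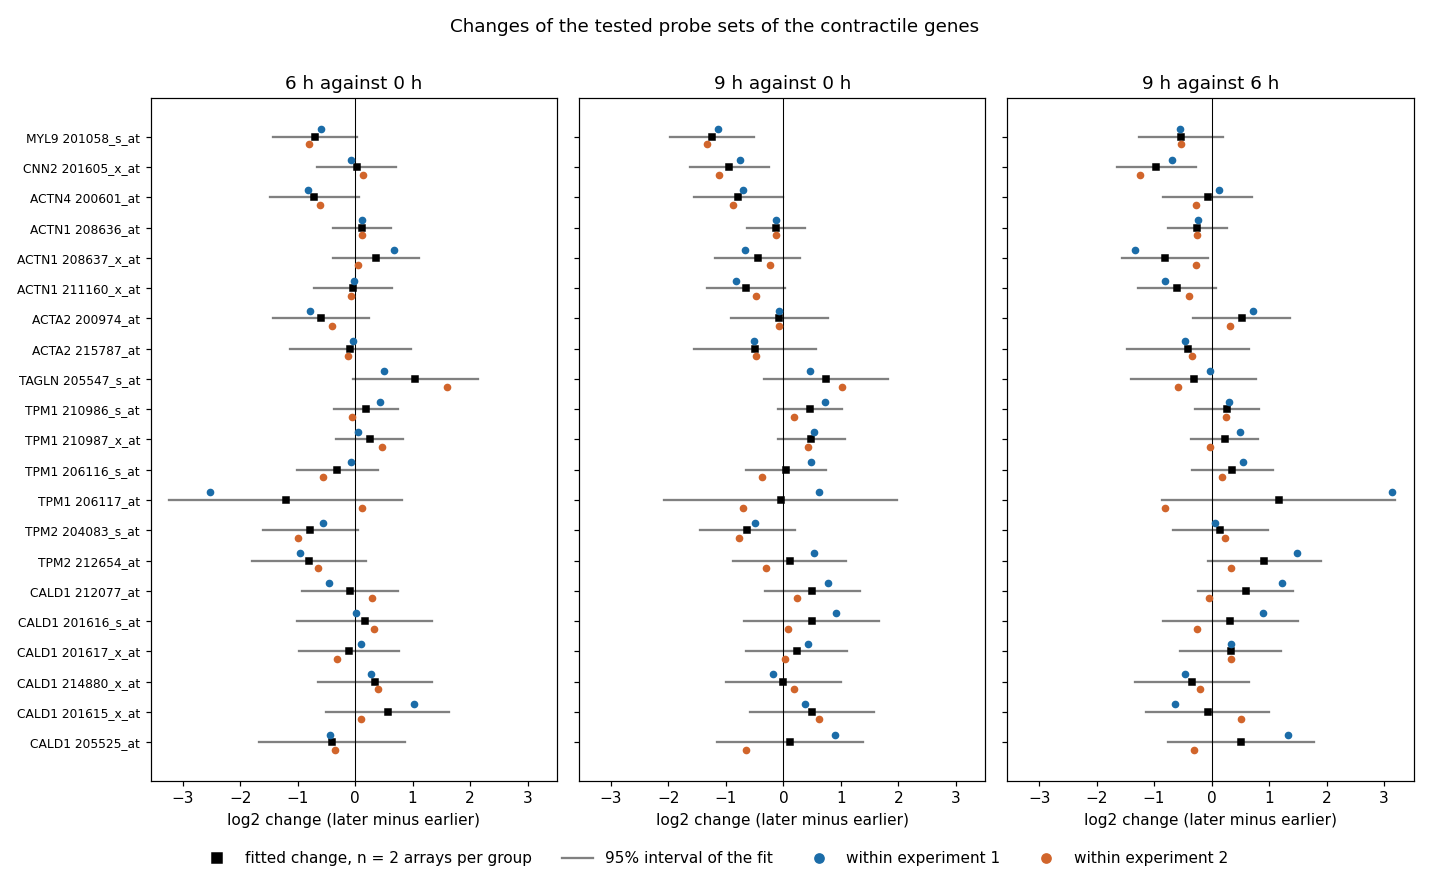
Log2 change (horizontal axis, later minus earlier time) of the 21 tested probe sets in the 3 comparisons, with black squares for the fit, grey lines for its 95% interval, and blue and orange dots for experiments 1 and 2. At 9 h against 0 h the intervals of MYL9, CNN2 and ACTN4 lie below 0, before any adjustment for the number of probe sets.

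Tropomyosins run along the groove of the filament and decide which myosins and severing proteins can bind. TPM1 had 4 probe sets. The brightest gave normalised intensities of 1393 and 1584 at 0 h, then 1873 and 1524 at 6 h, then 2307 and 1804 at 9 h, and the next 1306 and 1435, 1347 and 1983, and 1894 and 1942. In both, the 9 h arrays were above the 0 h arrays and the 6 h arrays overlapped at least one of the neighbouring groups. Their log2 changes at 9 h were 0.46 ± 0.24 (limma adjusted p = 0.724; 0.28 without the 9 h array of experiment 1) and 0.49 ± 0.25 (0.718). The third probe set gave 498 and 573, 475 and 389.6, and 692 and 440.2, and a 9 h change of 0.05 ± 0.30, which was -0.28 without the 9 h array of experiment 1. The dimmest had experiments that disagreed: 73.7, 12.7 (at the floor) and 113 in experiment 1, and 45.7, 49.6 and 28.2 in experiment 2.

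TPM2, the beta-tropomyosin, was lower after induction on its brighter probe set: 560.4 and 458 at 0 h, then 380.3 and 229 at 6 h, then 399 and 269 at 9 h. Both induced groups lay below 0 h and overlapped each other. The log2 change was -0.78 ± 0.35 at 6 h (limma adjusted p = 0.969; -0.41 without the 6 h array of experiment 2) and -0.63 ± 0.35 at 9 h (adjusted p = 0.743; -0.35 without the 9 h array of experiment 2). The dim second probe set read 24.6 and 29.4, 4.82 (under the floor) and 18.7, and 35.7 and 23.8. It was lower at 6 h as well, with a change of -0.80 ± 0.42 (-0.20 unscaled, relative to all probe sets), but had 0.11 ± 0.42 at 9 h (-0.18 without the 9 h array of experiment 1). The unscaled value shares the limit given for TAGLN, as the deposited 6 h intensity of experiment 1 was only 2.

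CALD1, caldesmon, holds tropomyosin in place and blocks myosin until calcium signals release it; smooth muscle and other cells make different forms of it. Of its 8 probe sets 6 were tested. The brightest read 516 and 609 at 0 h, then 375 and 744 at 6 h, then 879 and 719.5 at 9 h. The 9 h arrays were above the 0 h arrays, while at 6 h the experiments lay on opposite sides of 0 h. The 9 h change was 0.51 ± 0.35 (limma adjusted p = 0.811), by 0.77 in experiment 1 and 0.24 in experiment 2. The other 5 had 9 h changes of 0.50, 0.49, 0.23, 0.12 and 0.0017. Leaving out 1 array took the last 3 below 0 (to -0.15 without the 0 h array of experiment 1, to -0.70 without the 9 h array of experiment 1 and to -0.36 without the 9 h array of experiment 2) and the first 2 to 0.0186 (0 h, experiment 1) and 0.090 (9 h, experiment 2). The last was -0.011 in unscaled intensities relative to all probe sets, and 2 of the 6 were below 0 in 1 experiment (-0.18 and -0.66). At 6 h 3 of the 6 were higher and 3 lower.

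**Figure D3:**
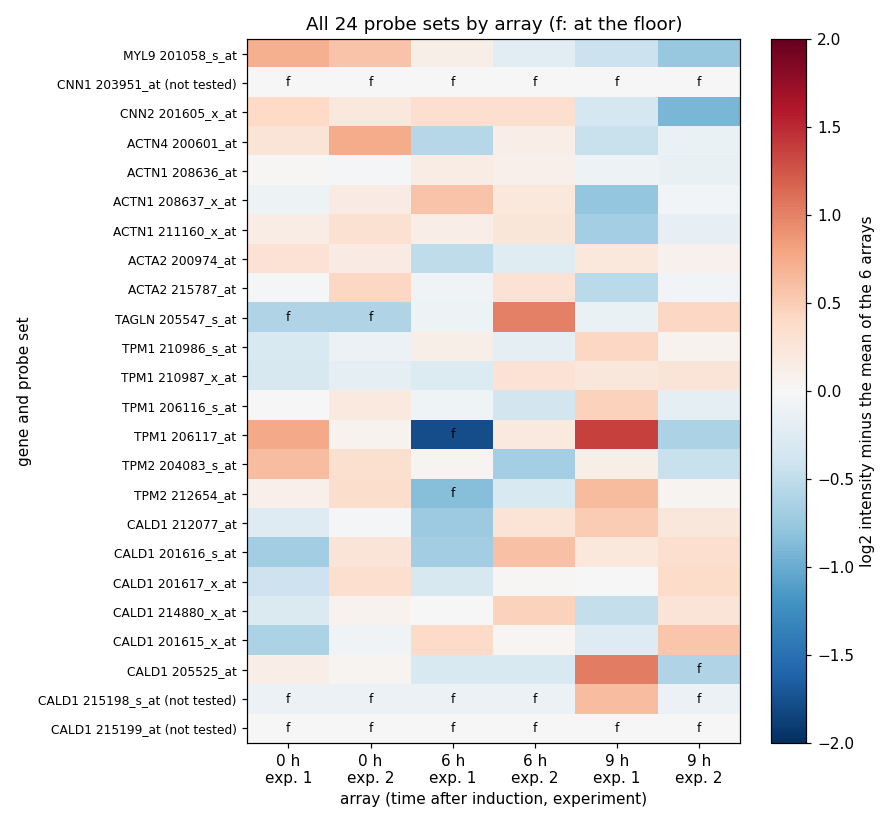
Log2 intensity of all 24 probe sets (rows) on the 6 arrays (columns), each row relative to its own mean, in red where above and blue where below; f marks a value at the floor. Probe sets of 1 gene often differ, as in the pairs of ACTA2 and TPM2, and the 9 h array of experiment 1 holds the highest values of several CALD1 and TPM1 rows.

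At 9 h the changes of the tested contractile genes ran from -1.23 (MYL9) to 0.74 (TAGLN). The median log2 change of the 9 tested genes was -0.08 at 6 h, -0.12 at 9 h and -0.07 from 6 h to 9 h, where that of all 10444 tested genes was 0.01, -0.02 and -0.01. It depends on the scaling: in unscaled intensities relative to all probe sets it was -0.41, -0.20 and 0.21, so that from 6 h to 9 h its sign turned. It also depends on TAGLN, which was tested only because its induced arrays lie above the floor. With the floor at the 40th percentile, where TAGLN did not pass the filter, the median was -0.34, -0.38 and 0.040. In experiment 1 alone the median was -0.46 at 6 h and in experiment 2 alone -0.06; the 9 h medians were -0.12 and -0.13.

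Counted over probe sets, of which several share a gene, 7 of the 21 were higher than at 0 h in both experiments at 6 h (25.3% of all tested) and 9 lower in both (25.8%). At 9 h 7 were higher (26.9%) and 9 lower (28.9%), and from 6 h to 9 h 6 were higher (27.1%) and 8 lower (25.9%). Of the same 21, 7 were lower at 6 h with groups that did not overlap (16.2% of all tested) and 4 higher (16.1%). At 9 h 7 were lower (19.1%) and 4 higher (18.3%). From 6 h to 9 h 5 were lower (15.1%) and 2 higher (14.9%). The higher counts are close to their background shares. The lower ones are above them, but they come from 21 probe sets of 9 genes, and probe sets of 1 gene count separately. From 6 h to 9 h all 3 ACTN1 probe sets are among the 5 lower without overlap. TAGLN, among the 4 higher at 6 h and at 9 h, passed the filter only through its induced arrays. The genes were chosen with earlier results of these data known, so these counts are a description and no independent support.

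At 6 h 0 of these probe sets passed (limma adjusted p under 0.05; background 0%), and at an unadjusted p under 0.05 lay 0 on the higher side (2.48%) and 0 on the lower (2.28%). When the fit held the experiment, 0 passed. At an unadjusted p under 0.05 it had 1 higher (TAGLN, background 4.87%) and 3 lower (MYL9, ACTN4 and the brighter TPM2 probe set, 4.83%). Both 0 h arrays of TAGLN lay at the floor, and it passed the filter only through its induced arrays. Its place in this count is therefore a description only. From 6 h to 9 h 0 passed, again with a background of 0%, and at an unadjusted p under 0.05 lay 2 on the lower side, CNN2 and 1 ACTN1 probe set (2.58%), and 0 on the higher (2.69%). The fit with the experiment again passed 0, with 3 lower (4.44%) and 0 higher (4.8%) at an unadjusted p under 0.05. The 3 lower were CNN2 and the ACTN1 probe sets of kind x, and the brightest ACTN1 probe set was not among them. At 9 h against 0 h that fit placed 2 probe sets of TPM1 on the higher side (7.29%) and 5 probe sets on the lower side (6.57%) at an unadjusted p under 0.05. The 3 comparisons share their arrays and are not independent of one another.

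**Figure D4:**
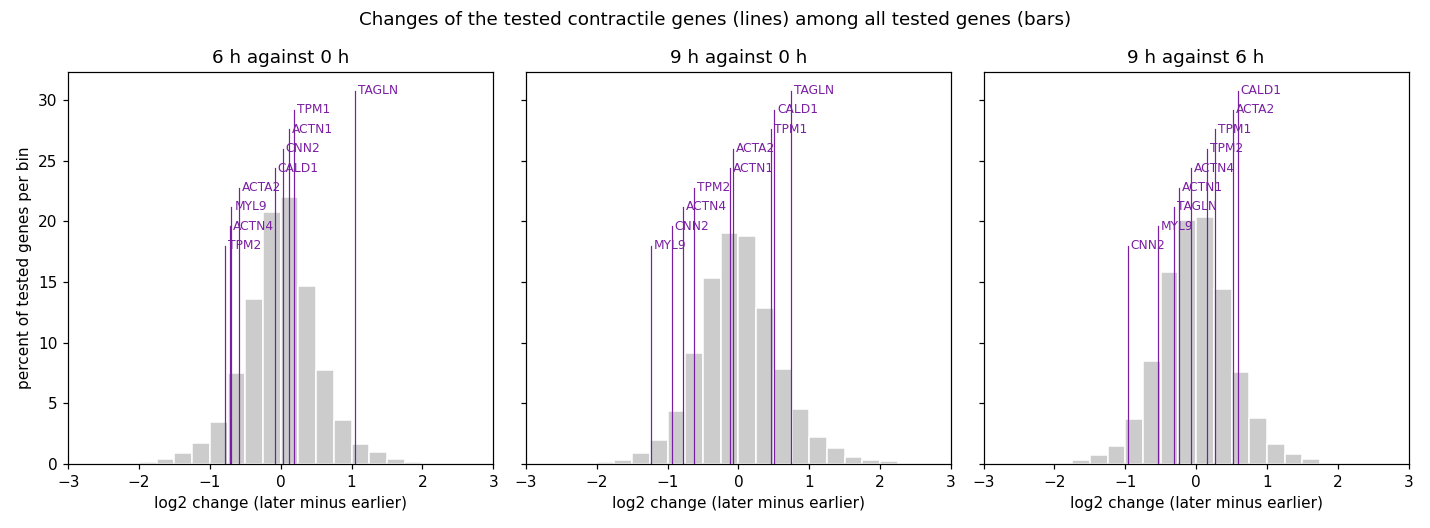
Distribution of the log2 changes of all 10444 tested genes (grey bars, percent of genes per bin of 0.25) with purple lines at the changes of the 9 tested contractile genes in the 3 comparisons; the height of a line has no meaning. At 9 h MYL9 is the leftmost line at -1.23 and TAGLN the rightmost at 0.74.

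Other genes of actin and myosin biology were taken from 5 lists with 78 genes, of which 63 had a probe set and 61 were tested. None passed in any of the 3 comparisons by limma, whether or not the fit held the experiment. At 9 h 1 was higher (4.7% of all tested genes) and 4 lower (3.21%) at an unadjusted p under 0.05. The median of the 61 log2 changes was -0.06, with 13 higher (28% of all tested genes) and 22 lower (29.5%) in both experiments. For each list the up to 3 genes with the largest 9 h change are named here.

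The 11 tested actins and myosins had a median of -0.17 at 9 h, a direction that did not hold: it was -0.26 in experiment 1, 0.17 in experiment 2 and 0.11 in unscaled intensities relative to all probe sets. Among them MYL12A, a nonmuscle relative of MYL9, had normalised intensities of 352 and 224 at 0 h, then 405 and 317 at 6 h, then 462 and 365 at 9 h. Its 9 h change of 0.55 ± 0.32 was opposite in sign to that of MYL9, and dropping a 0 h array made it 0.22 (experiment 2 dropped) or 0.88 (experiment 1 dropped). MYH9 and MYH10, nonmuscle myosin heavy chains, had -0.49 ± 0.62 and -0.41 ± 0.69; MYH9 was -1.23 in experiment 1 and 0.24 in experiment 2, and the second tested MYH10 probe set had the other sign.

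In the list on control of the myosin light chain (13 tested, median 0.05) PPP1R12A, the targeting subunit of myosin phosphatase, was 151 and 189 at 0 h, then 148.5 and 204.5 at 6 h, then 405 and 319 at 9 h. Its 9 h arrays were above all others, with a change of 1.09 ± 0.32 (limma adjusted p = 0.591) and all 3 of its probe sets above 0. RHOC, a small GTPase that activates contraction, was 869 and 947.5, 672 and 606.5, and 371 and 602, a 9 h change of -0.94 ± 0.29 (adjusted p = 0.596; -0.59 without the 9 h array of experiment 1). LIMK1, a kinase that inactivates cofilin, had -1.06 ± 0.46 (-0.67 without the 9 h array of experiment 1), and 1 of the 9 h values lay at the floor. With the floor at the 40th percentile LIMK1 had -0.17, so its size depends on the floor.

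Of serum response factor and its partners 7 were tested (median 0.13 at 9 h, but 0.029 in experiment 1 and -0.10 in experiment 2). MRTFA, the coactivator that free actin holds back, was 76.1 and 92.0 at 0 h, then 133 and 192 at 6 h, then 88.8 and 224 at 9 h. Its 6 h arrays lay above 0 h, with a change of 0.93 ± 0.50 (limma adjusted p = 0.969), while at 9 h only that of experiment 2 did, so that the 9 h change of 0.75 ± 0.50 became 0.086 without that array and 1.42 when the other 9 h array was left out. The ETS factors ELK1 and ELK3 had -0.52 ± 0.33 and 0.29 ± 0.29 at 9 h. With 1 array left out ELK1 ran from -0.75 to -0.29 (the 0 h arrays of experiments 1 and 2, respectively) and ELK3 from 0.017 to 0.57 (the 9 h arrays of experiments 2 and 1).

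Crosslinkers and adhesion proteins (15 tested) had a median of -0.33 at 9 h, which was -0.43 in experiment 1 and -0.0019 in experiment 2. Of these 15, 8 were lower in both experiments and 2 higher, to be read against the all-gene shares of 29.5% and 28%. LASP1, an actin-binding adaptor, read 879 and 690 at 0 h, then 839 and 551 at 6 h, then 487 and 393.5 at 9 h, a 9 h change of -0.83 ± 0.30 (limma adjusted p = 0.631). ACTN3, the fast muscle alpha-actinin, was dim and had -0.84 ± 0.49, or -0.23 with the floor at the 40th percentile. LIMA1, which bundles filaments, had 0.63 ± 0.44, or 0.30 and 0.97 without the 9 h arrays of experiments 2 and 1. Genes of filament turnover (15 tested, median -0.08) included CAPZB, a capping protein subunit (-0.66 ± 0.27, and -0.41 without the 9 h array of experiment 1), TMOD3, which caps the other end (-0.55 ± 0.41 at 9 h and -1.06 ± 0.41 at 6 h), and TMSB10, which binds free actin (-0.48 ± 0.25, or -0.22 with experiment 2 left out at 9 h).

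The mean profile of the 9 contractile genes was flat: centred on its own mean, it ran from -0.18 (9 h, experiment 2) to 0.14 (0 h, experiment 2) in log2 units. MYL9 ran from -0.76 to 0.71 and TAGLN from -0.60 to 1.01 on the same scale. Among 10355 other genes those closest to the mean profile over the 6 arrays, by root mean square difference in log2 units, were RPS18 (0.040), USP7 (0.053), ENC1 (0.055), ALG8 (0.056) and HDDC2 (0.060).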

How the data were processed

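The values deposited by the authors are 1 linear intensity per probe set and array; the software and any scaling are not given in the sources used here. In R 4.3.3 the 6 arrays were quantile normalised with limma 3.58.1, floored at 12.7 intensity units and log2 transformed. The 68 Affymetrix control probe sets were left out. The remaining probe sets past the filter, 18360, entered 1 limma model of the 3 times (lmFit, then eBayes on the contrasts with a trend in intensity; 3 residual degrees of freedom), with two-sided p-values under Benjamini-Hochberg adjustment; ± is the standard error of that fit. Each standard error rests on the number of arrays, their spread and the model, so it differs between probe sets. Symbols come from the platform's probe table, updated through Entrez numbers (19071 probe sets with 1 symbol, 1043 with several, 2169 with none).

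Arrays are paired by experiment, since the labels describe each experiment as its own RNA batch. Deviations from group means of arrays in 1 experiment correlated at 0.247 between 0 h and 6 h, at 0.336 between 0 h and 9 h, and at 0.391 for 6 h with 9 h. A model with the experiment as block was an alternative, beside others of scaling, floor, filter, trend and left-out arrays. The lot line of the 6 h array of experiment 2 names the other experiment; the title was followed. The scripts were tested on simulated data. All 10 genes were named, and of each related list the up to 3 with the largest 9 h change. The genes, lists and tests were chosen with earlier results of these data known.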

Additional observations from a re-analysis of the deposited data

How the results depend on the processing

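None of the contractile probe sets passed in any comparison under any alternative that was run, with the replicate block included (0 at 6 h, 0 at 9 h, 0 from 6 h to 9 h); the lowest adjusted p for a gene was 0.0909, for MYL9 at 9 h with that block. Of the 27 changes of the 9 contractile genes, 7 turned direction under at least 1 alternative, and of the 45 changes of the related genes named, 17 did. None of these was past the threshold, and at 9 h against 0 h none of the 9 contractile genes turned under the alternatives run. All these changes are those of the brightest probe set of each gene. Other probe sets of TPM1, TPM2 and CALD1 did turn at 9 h with 1 array left out, as given above. Unscaled, all probe sets had a median change of -1.34 (6 h), -0.56 (9 h) and 0.75 (6 h to 9 h), and unscaled values here are relative to these. A value set to the floor does not follow this shift, so the relative values of dim probe sets such as that of TAGLN are limited by it.

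The median over the contractile genes was, unscaled and with median scaling, -0.41 and -0.40 (6 h), -0.20 and -0.17 (9 h), then 0.21 and 0.21 (6 h to 9 h). Within experiment 1, an alternative chosen after seeing the data, it was -0.46 at 6 h. With the floor at the 40th percentile TAGLN did not pass the filter, and the median of the other genes was -0.34 at 6 h and 0.040 from 6 h to 9 h. These differ from the main values because TAGLN is missing. With the mean of a gene's probe sets the 6 h median was -0.27. At 9 h the median was -0.38 with the floor at the 40th percentile, again without TAGLN. It was -0.0977 with no filter, where CNN1 entered with all arrays at the floor, and -0.28 with the mean of a gene's probe sets. Leaving out 1 array gave -0.41 to 0.029 at 6 h, -0.15 to -0.094 at 9 h and -0.22 to 0.12 from 6 h to 9 h.

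Changes that turned direction at 6 h were, unscaled and with median scaling, -0.25 and -0.25 for CNN2 (-0.16 with the lot line as block), -0.16 and -0.16 for ACTN1, -0.0223 and -0.0186 for TPM1, -0.24 and -0.23 for MYH9, -0.13 and -0.13 for PPP1R12A, -0.10 and -0.097 for ELK3, and -0.14 and -0.14 for LIMA1. From 6 h to 9 h they were 0.21 and 0.21 for ACTN4, and ELK3 had -0.035 with the lot line as block.

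With 1 array left out, the 6 h change ran from -0.074 to 0.13 for CNN2, -0.58 to 0.41 for CALD1, -0.52 to 0.65 for MYH9, -1.34 to 0.045 for MYH10, -0.19 to 0.28 for PPP1R12A, -0.97 to 0.076 for ACTN3, -0.50 to 0.11 for LASP1, -0.54 to 0.77 for LIMA1 and -0.38 to 0.060 for CAPZB. The 9 h change ran from -1.41 to 0.42 for MYH9 and -1.12 to 0.31 for MYH10. From 6 h to 9 h it ran from -0.42 to 0.28 for ACTN4, -0.86 to 0.25 for TAGLN, -0.22 to 0.52 for TPM2, -1.48 to 0.35 for MYH9, -0.48 to 0.96 for MYH10, -0.85 to 0.48 for MRTFA, -0.18 to 0.37 for ELK3, -0.92 to 0.13 for ACTN3, -0.13 to 1.17 for LIMA1 and -0.51 to 0.0069 for TMSB10. Where no value shows it, the cause was not tested.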
